A study of Mus musculus with 3 samples.

Results

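The 7 genes of the pentose phosphate pathway, Tkt, Taldo1, Rpia, Rpe, G6pdx, Pgls and Pgd, were described in sorted horizontal cells of the mouse retina, out of 32285 features counted. The set was drawn up because the Tkt transcript was more abundant at the later ages in these same libraries, so the rise of Tkt itself is a description and carries no test. The comparison asked whether the difference in Tkt was shared by the 3 genes of the oxidative branch (G6pdx, Pgls and Pgd) and by the other 3 genes of the non-oxidative branch (Taldo1, Rpia and Rpe). All 7 genes were found under their own symbol. Of these, 6 had at least 20 counts per 1000000 UMIs (CPM) at some age, and Rpia lay below that level throughout.

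The study collected horizontal cells, the inhibitory interneurons that contact rod and cone terminals in the outer retina, on postnatal days 6, 8 and 11 (P6, P8 and P11). All mice carried Cx57icre, a Cre driver named for connexin 57, a gap junction protein of horizontal cells, and Ai14, a reporter that makes the red protein tdTomato once Cre has acted; no group lacked either allele and none was treated. Each age was 1 sorted suspension and 1 10x Genomics 3' droplet library, and neither the number of animals behind a library nor their sex was stated in the labels. Age and library therefore cannot be told apart, no test between ages was possible, and every interval below covers counting error only. A UMI (unique molecular identifier) marks 1 captured transcript near its 3' end, so levels are not divided by gene length, and capture may differ between genes.

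Of the kept barcodes, 7145 at P6, 3153 at P8 and 4757 at P11 were taken as horizontal cells because they held a UMI of at least 2 of the transcription factor genes Lhx1, Onecut1 and Onecut2, which mark this lineage. They made up 94.36% to 96.24% of kept barcodes, and the median cell held 12161, 20671 and 22106 UMIs. The summed level of the wider horizontal cell marker list was 7822, 12036 and 19428 CPM. That list includes Lhx1, Onecut1 and Onecut2, so it is not independent of the cell rule. Of its genes, Mgarp was at 159.7, 2641 and 5433 CPM and Calb1 at 701.8, 1714 and 2952 CPM. By CPM, Onecut1 (765.6 at P6, 683.0 at P11) and Onecut2 (1025 and 864.7) were lower at P11 than at P6, while Lhx1 was higher (702.5 and 791.1). Of the lists of other cells, rod markers summed to 6.824 to 9.405 CPM, cone markers to 0.9917 to 1.422 CPM and endothelial markers to 0.2399 to 1.397 CPM. Amacrine markers summed to 526.0, 512.7 and 500.5 CPM, led by Slc32a1 and Pax6, and ganglion cell markers to 1298, 1382 and 832.9 CPM, nearly all from Nefl (1249, 1358 and 815.3 CPM). The ganglion list was thus lowest at P11, and its part in the results was not tested. The Müller glia list reached 201.3 to 298.1 CPM, mostly from Glul, while its defining markers Rlbp1 and Slc1a3 stood at 1.215 CPM or less, with 0 UMIs of Slc1a3 at P8. Libraries shared 8 to 15 barcode sequences pairwise, of which 4 to 8 were horizontal cells in both.

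The pentose phosphate pathway branches off glycolysis at glucose 6-phosphate. Its oxidative branch makes NADPH, the reducing agent for glutathione recycling and lipid synthesis, and ends in ribulose 5-phosphate. Its non-oxidative branch interconverts sugar phosphates, linking ribose 5-phosphate for nucleotides with fructose 6-phosphate and glyceraldehyde 3-phosphate of glycolysis, and runs in either direction. In the retina the pathway is known mainly for supplying NADPH to photoreceptors, where it serves antioxidant defence and the reduction of retinal.

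The promoters of a pair of genes are shown because Tkt and Taldo1 encode the enzymes that share the carbon-shuffling steps of the non-oxidative branch, and their transcripts followed different courses. Each is the 250 bases before the RefSeq start (GRCm38.p6), printed 5′ to 3′ on the strand of the gene, with matches to the GC box (GGGCGG on either strand) in capitals. The Tkt promoter is chr14:30548881-30549130 on the plus strand, and part of it is also an exon of a non-coding Tkt transcript in GENCODE vM21. The Taldo1 promoter is chr7:141391910-141392159 on the plus strand.
Tkt: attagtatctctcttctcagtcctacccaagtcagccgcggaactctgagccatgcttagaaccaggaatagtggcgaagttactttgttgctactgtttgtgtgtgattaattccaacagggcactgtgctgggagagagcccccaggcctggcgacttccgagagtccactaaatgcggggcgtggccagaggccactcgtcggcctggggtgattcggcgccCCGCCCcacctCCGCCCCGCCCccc
Taldo1: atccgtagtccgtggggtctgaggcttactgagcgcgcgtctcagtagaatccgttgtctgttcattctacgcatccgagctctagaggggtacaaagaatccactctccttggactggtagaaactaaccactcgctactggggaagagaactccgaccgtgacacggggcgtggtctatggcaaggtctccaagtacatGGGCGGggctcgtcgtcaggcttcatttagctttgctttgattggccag

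The Tkt promoter held 3 GC box matches, 25 to 20, 14 to 9 and 9 to 4 bases before the start, the last 2 sharing a base. The Taldo1 promoter held 1, at 49 to 44 bases. Every member had a match at one of its starts, Pgd at 1 of its 2, and 32.7% of 32851 mouse promoters of this length held one. The antioxidant response element core (TGACNNNGC) matched only in G6pdx among the 7, 57 to 49 bases before the start, against 10.2% of all promoters. The E-box CACGTG (6.02% of promoters), the TATA box TATAAA (12.4%) and the Onecut core ATCAAT (6.72%) had 0 matches in the members. A match is a string of letters in this window and not a measured site.

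Tkt encodes transketolase, the thiamine-dependent enzyme that moves carbon units between sugar phosphates in the non-oxidative branch. The gene lies at chr14:30548359-30574720 on the plus strand (ENSMUSG00000021957). In horizontal cells its level was 188.8 CPM at P6 (exact Poisson 95% interval 185.9 to 191.8, 15543 UMIs). It was 436.5 CPM at P8 (431.3 to 441.7, 27287 UMIs) and 1333 CPM at P11 (1326 to 1340, 137497 UMIs). The 3 intervals did not overlap, and each later library was higher than the one before. P11 was 7.058-fold above P6 (exact binomial 95% interval 6.942 to 7.176), made of a 2.311-fold step from P6 to P8 and a 3.054-fold step from P8 to P11. Per cell, without correction for depth, the mean was 2.175, 8.654 and 28.90 Tkt UMIs; how far the deeper P8 and P11 libraries reflect more RNA per cell was not tested.

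Taldo1 encodes transaldolase, which completes the sugar rearrangements with transketolase (chr7:141392199-141402968, plus strand, ENSMUSG00000025503). The P6 library gave 229.7 CPM (226.4 to 233.0), P8 gave 288.9 (284.7 to 293.2) and P11 gave 237.7 (234.7 to 240.7). P8 was the highest library, and P11 was 1.035-fold of P6 (1.016 to 1.055). At P6 there were 0.8223 Tkt UMIs for each Taldo1 UMI. That ratio was 1.510 at P8 and 5.607 at P11.

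Rpe, the ribulose-phosphate 3-epimerase gene (chr1:66700831-66719805, plus strand, ENSMUSG00000026005), measured 24.04 CPM on day 6 (23.00 to 25.13), 29.77 on day 8 (28.43 to 31.15) and 29.99 on day 11 (28.94 to 31.07). The P8 and P11 intervals overlapped and both lay above P6, with P11 1.247-fold of P6 (1.179 to 1.320). Rpia encodes ribose 5-phosphate isomerase, the enzyme that forms ribose 5-phosphate (chr6:70765720-70792232, minus strand, ENSMUSG00000053604). It had 397, 221 and 397 UMIs, or 4.823 (4.361 to 5.322), 3.535 (3.084 to 4.033) and 3.848 CPM (3.479 to 4.246). Its P11 to P6 ratio was 0.7978 (0.6925 to 0.9192), and being under 20 CPM it was not counted as called in either direction. Summed, Taldo1, Rpia and Rpe came to 258.5, 322.2 and 271.5 CPM, a P11 to P6 ratio of 1.050 (1.032 to 1.069). Taldo1 supplied 18902 of the 21278 UMIs of this sum at P6 and 24521 of 28012 at P11.

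In the oxidative branch, G6pdx encodes glucose 6-phosphate dehydrogenase, the entry enzyme that makes the first NADPH (chrX:74409483-74429194, minus strand, ENSMUSG00000031400). The P6 library gave 48.76 CPM (47.26 to 50.29), the P8 library 36.40 (34.92 to 37.93) and the P11 library 48.14 (46.81 to 49.50). P8 was the lowest library, while the intervals of P6 and P11 overlapped. The P11 to P6 ratio was 0.9873 (0.9469 to 1.030), and its side of 1 changed with the scaling, from -0.02 to 0.18 on the log2 scale under both other scalings.

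Pgls encodes 6-phosphogluconolactonase, which opens the lactone made by the first step (chr8:71592176-71601092, plus strand, ENSMUSG00000031807). It measured 244.8 CPM on day 6 (241.4 to 248.2), 262.4 on day 8 (258.4 to 266.5) and 150.9 on day 11 (148.5 to 153.3). P11 was the lowest library, 1.622-fold below P6 (1.589 to 1.657) and 1.739-fold below P8 (1.701 to 1.778). The difference from P6 kept its direction under every alternative run but was under 1.5-fold with both other scalings and in cells of 10000 to 20000 UMIs. Pgd, the gene of 6-phosphogluconate dehydrogenase, which makes the second NADPH (chr4:149149991-149166771, minus strand, ENSMUSG00000028961), measured 39.41 CPM on day 6 (38.07 to 40.79), 29.94 on day 8 (28.60 to 31.33) and 27.05 on day 11 (26.06 to 28.08). P6 was the highest library and P11 was 1.457-fold below it (1.385 to 1.533).

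Taken over G6pdx, Pgls and Pgd, the oxidative branch summed to 333.0 CPM on day 6 (329.0 to 336.9), 328.8 on day 8 (324.3 to 333.3) and 226.1 on day 11 (223.2 to 229.0). P6 and P8 overlapped, and P11 lay 1.473-fold below P6 (1.447 to 1.499). Pgls supplied 20147 of the 27404 UMIs of this sum at P6 and 15564 of 23321 at P11, so the branch ratio mostly followed Pgls. Pgd was also lower at P11, while the P11 to P6 ratio of G6pdx was 0.9873. The whole non-oxidative branch was 447.4, 758.7 and 1604 CPM. Non-oxidative UMIs were thus 1.344 times the oxidative ones at P6, 2.308 times at P8 and 7.097 times at P11; with Tkt left out the ratios were 0.7765, 0.9802 and 1.201. Tkt alone supplied 24.20% of the UMIs of the 7 genes in the P6 library, 40.14% in P8 and 72.82% in P11. All 7 genes summed to 780.3, 1087 and 1830 CPM, and the 6 genes other than Tkt to 591.5, 651.0 and 497.6 CPM, so without Tkt the pathway sum was lower at P11 than at P6 by CPM. On the log2 scale that difference was -0.25, and -0.05 with either other scaling.

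**Figure D1:**
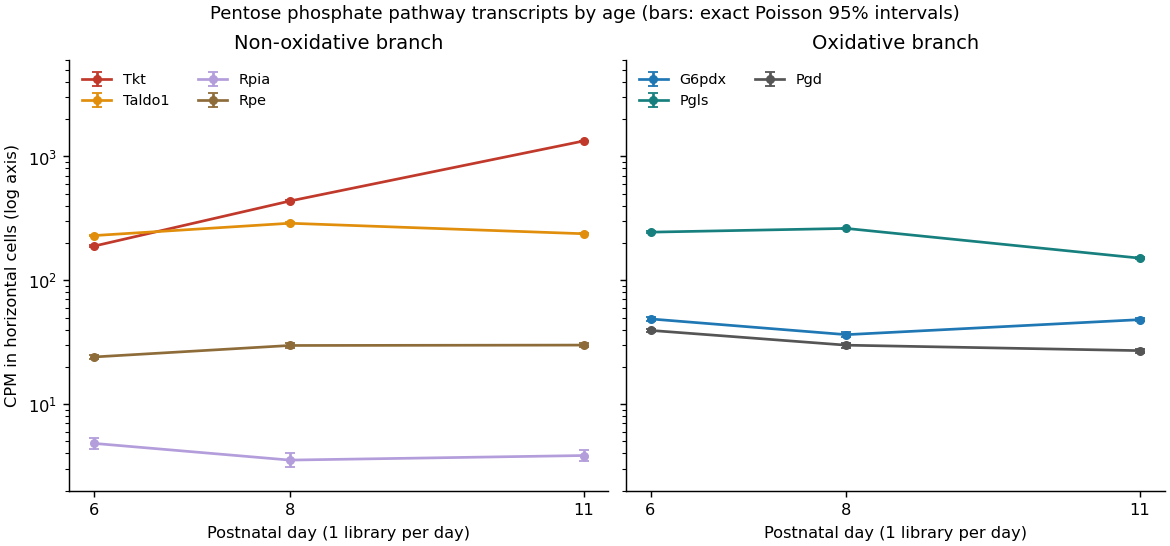
Level of each pathway gene in horizontal cells (CPM, log axis) against postnatal day, 1 library per day, with the non-oxidative branch on the left and the oxidative branch on the right; bars are exact Poisson 95% intervals. Tkt moves from 188.8 to 1333 CPM while Taldo1 ends near its starting level and Pgls ends at 150.9 CPM.

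A gene with at least 20 CPM at its higher age was counted as called when the ages lay at least 1.5-fold apart. Between P6 and P8, 1 of the 6 members at that level was higher (Tkt), 0 were lower and 5 lay between; of all 7062 genes, 7.93% were higher and 21.7% lower. From P8 to P11, 1 was higher (Tkt), 1 was lower (Pgls) and 4 lay between, beside 10.4% and 4.54% of 6766 genes. Between P6 and P11 the members again gave 1 higher (Tkt), 1 lower (Pgls) and 4 between, beside 7.31% higher and 12.3% lower of 7156 genes. The median log2 ratio of the 6 members was 0.02 for P11 over P6, and that of all genes -0.08.

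The comparisons share libraries, so they are given side by side and not as separate evidence. Of the genes counted, 14 had a P11 to P6 ratio at least as high as that of Tkt, with Tkt itself among the 14. The balance of all calls depended on scaling: 37.2% of the P11 and P6 calls were higher at P11, against 67.0% with either other scaling, under which the all-gene median moved from -0.08 to 0.13. Relative to the all-gene median, log2 P11 over P6 was 2.90 for Tkt, 0.40 for Rpe, 0.13 for Taldo1, 0.06 for G6pdx, -0.25 for Rpia, -0.46 for Pgd and -0.62 for Pgls.

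**Figure D2:**
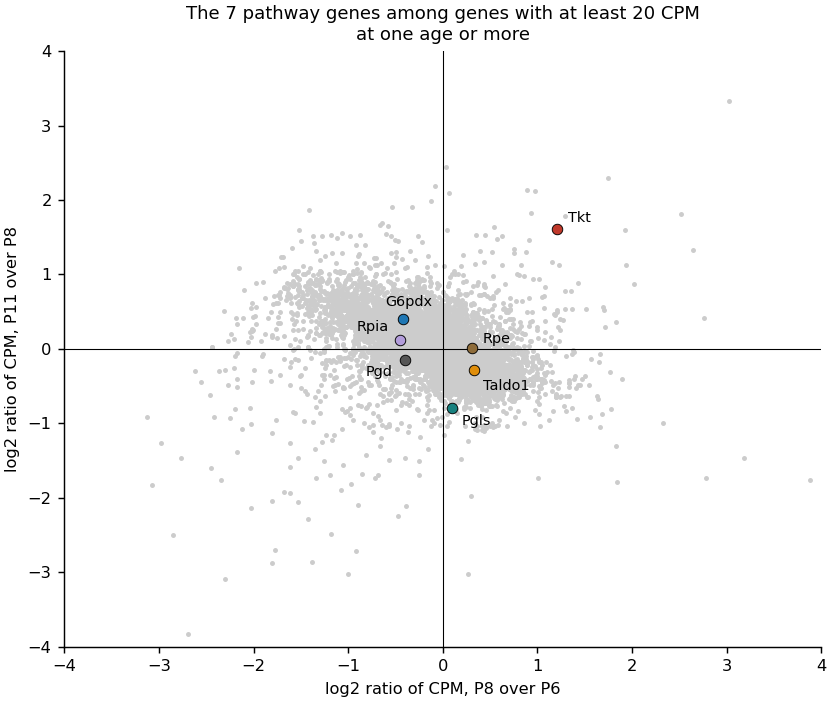
Log2 ratio of P8 over P6 (x axis) and of P11 over P8 (y axis) for the 7 members, labelled, and for genes with at least 20 CPM at some age and a UMI at every age as small points. Both axes use the P8 library, so the positions along them are not independent, and 3 genes beyond 4 on an axis are not drawn; Tkt lies at 1.21 and 1.61, and Pgls at 0.10 and -0.80.

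Several members overlap another gene, and whether the counting used strand is not given in the sources used here. Rpe overlaps Kansl1l on the opposite strand (28.54, 14.22 and 20.93 CPM) and G6pdx overlaps Ikbkg (14.68, 11.45 and 12.30 CPM), so small differences in these members are uncertain. Pgls overlaps Fam129c on the same strand, at 1.231 to 1.397 CPM. Gene span also moved with the ages: with genes sorted into 5 equal groups by span, the P8 to P6 median was 0.27 (log2) in the shortest group and -0.73 in the longest. All 7 members span 8.917 to 26.51 kb, in the shorter 3 of the 5 groups, and relative to genes of like span Tkt was 2.87 and Pgls -0.73 for P11 over P6.

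After thinning to 3000 UMIs, the Tkt transcript was found in most P11 cells and was not limited to a few of them. Thinning left 6768, 3056 and 4667 cells, with 377, 97 and 90 shallower cells left out. A Tkt UMI was then present in 42.79% of cells at P6 (41.61 to 43.98%, exact Clopper-Pearson 95%), 68.95% at P8 (67.27 to 70.58%) and 95.86% at P11 (95.25 to 96.42%). Unthinned, the shares were 79.48%, 97.08% and 99.66%. Slc1a3, a glial gene that horizontal cells should lack, had a UMI in 0.1182% of the same thinned cells at P6, in 0 of 3056 at P8, which allows a share of up to 0.09817% (3 counts of the total), and in 0.02143% at P11. The median cell held 0, 1 and 4 Tkt UMIs.

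Tkt counts were spread between cells somewhat more than sampling alone gives. The variance divided by the mean, which is 1 for Poisson counts, was 1.08 at P6, 1.27 at P8 and 1.53 at P11. This quotient grows with the mean for a given relative spread, and its excess over 1 divided by the mean was 0.13, 0.21 and 0.13, so the relative spread was not larger at P11 than at P6. A Poisson distribution of the same mean would give 43.99%, 73.32% and 98.09% of cells with a UMI, above the measured share at each age. The other 6 members had means under 1 UMI per thinned cell at every age, as Tkt did at P6 (0.5796). At P6 only Taldo1 (mean 0.7250) and Pgls (0.7531) had a mean above that of Tkt, with quotients of 1.06 and 1.02 beside its 1.08. The excess over 1 divided by the mean was 0.083 for Taldo1 and 0.021 for Pgls. At P8 and P11 the means of the 6 lay below that of Tkt, and their quotients were not set beside it. The thinned shares of the 6 members at P6, P8 and P11 followed the summed levels: 50.16%, 56.61% and 50.63% for Taldo1, and 52.44%, 53.17% and 36.58% for Pgls. G6pdx was found in 13.12%, 10.05% and 13.09% of cells, Pgd in 11.05%, 9.293% and 8.014%, and Rpe in 7.210%, 8.704% and 8.999%. Rpia was found in 1.492%, 1.047% and 1.200%.

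**Figure D3:**
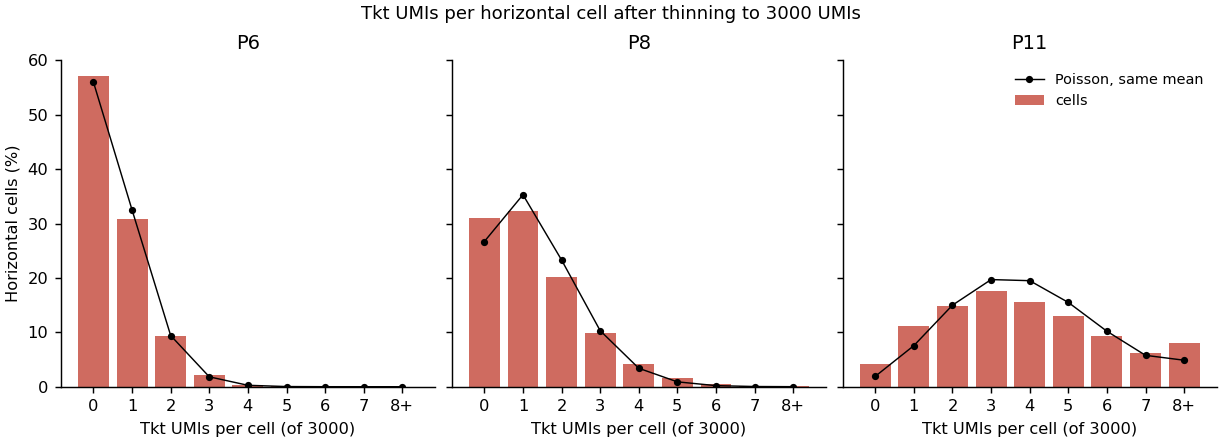
Percent of horizontal cells (y axis) by number of Tkt UMIs per cell after thinning to 3000 UMIs (x axis), 1 panel per age, as bars, with the Poisson distribution of the same mean as points. The median moves from 0 at P6 to 4 at P11, and at P11 the bars lie above the points at both ends of the distribution.

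Within a library, Tkt was set beside other genes cell by cell. Over thinned cells, which share their library and a fixed total, Pearson's r with Tkt lay between -0.02 and 0.03 for the other members at all 3 ages, and the median over 4233 genes was 0.00. Low counts pull r toward 0, and the other members averaged 0.01080 (Rpia at P8) to 0.8583 (Taldo1 at P8) UMIs per thinned cell. Their r therefore cannot show whether they vary with Tkt, or be compared with that of more abundant genes. The highest r at P8 (0.23, 3056 cells) and at P11 (0.25, 4667 cells) was that of Mgarp, the gene of a mitochondrial protein and one of the horizontal cell markers, with 0.07 at P6 (6768 cells). Mgarp was singled out after these values were seen, and the groups below describe the same cells. Cells were grouped by their Mgarp UMIs after thinning. At P8, Tkt was 225.7 CPM in cells with 0 Mgarp UMIs (174.2 to 287.7, 96 cells), 431.6 in those with 5 to 9 (410.0 to 454.1, 1153 cells) and 672.3 in those with 20 or more (557.0 to 804.5, 59 cells).

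At P11, Tkt was 777.8 CPM in the 57 cells with 2 to 4 Mgarp UMIs (651.2 to 921.8) and 1561 in the 1308 cells with 20 or more (1523 to 1601). At P6, Tkt was 182.3 CPM in the 4717 cells with 0 Mgarp UMIs and 236.7 in the 707 cells with 2 to 4. In the group shared by all ages, 2 to 4 Mgarp UMIs, Tkt was therefore 236.7, 346.5 and 777.8 CPM at P6, P8 and P11, with intervals that did not overlap. Across the same groups Taldo1 stayed between 266.8 and 305.3 CPM at P8, with overlapping intervals at the ends. Pgls at P8 was 319.4 CPM at 0 Mgarp UMIs (257.5 to 391.8) and 214.7 at 20 or more (151.9 to 294.7), also with overlapping intervals. At P11, Taldo1 went from 140.4 to 275.7 CPM and Pgls from 76.02 to 157.7 CPM, so there the groups differed in these members too.

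**Figure D4:**
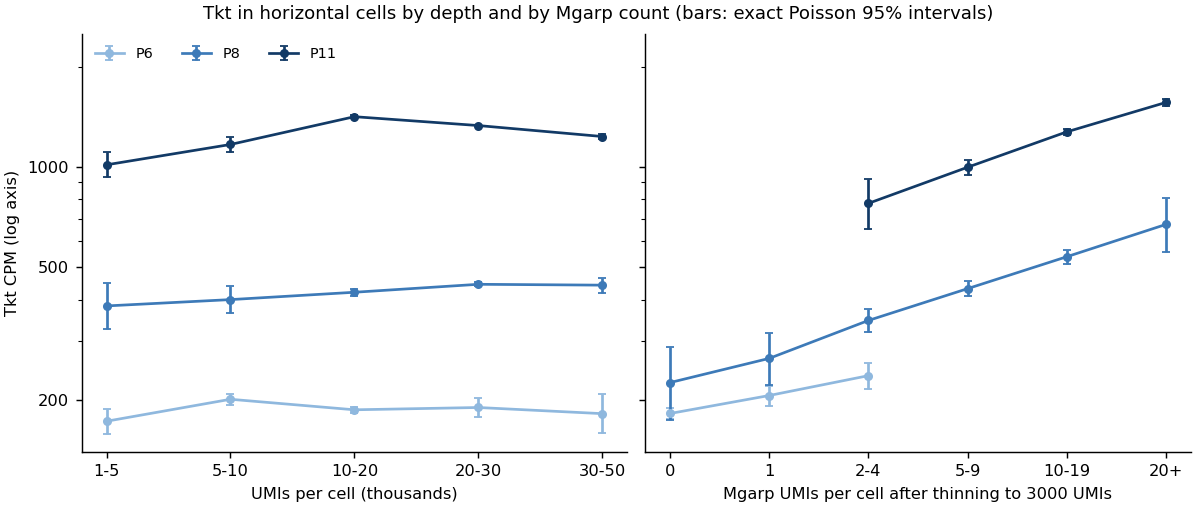
Tkt level (CPM, log axis) in horizontal cells by UMIs per cell, in units of 1000 (left) and by Mgarp UMIs per thinned cell (right), 1 line per age; bars are exact Poisson 95% intervals. The ages stay apart in every depth group, and in the P8 and P11 libraries Tkt is higher in groups with more Mgarp UMIs.

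Depth moved with age, so Tkt was also read within depth groups. From cells of 1000 to 5000 UMIs up to cells of 30000 to 50000, Tkt ranged from 172.8 to 201.1 CPM at P6, from 383.1 to 444.8 at P8 and from 1015 to 1415 at P11, and no range met another. In cells of 10000 to 20000 UMIs the levels were 187.0, 421.0 and 1415 CPM. In the same cells Taldo1 was 224.8, 313.8 and 257.7 CPM and Pgls 242.3, 292.0 and 164.7 CPM.

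Taldo1 and Pgls depended more on depth than Tkt did. In cells of 1000 to 5000 UMIs (931, 149 and 170 cells) Taldo1 was 187.2, 161.1 and 104.6 CPM, and Pgls 203.2, 134.2 and 48.45 CPM. In cells of 5000 to 10000 UMIs (1722, 147 and 144 cells) Taldo1 was 266.2, 225.6 and 134.3 CPM, and Pgls 268.2, 175.5 and 106.5 CPM. In these shallow cells both genes were lowest at P11, and P8 lay below P6, with overlapping intervals for Taldo1 in the shallowest group, unlike in the sums over all horizontal cells, which the deeper cells dominate.

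Values near the limit of the cell rule were as follows. Barcodes with exactly 2 of the 3 rule genes, just inside it, had Tkt at 175.4, 375.3 and 748.8 CPM (443, 97 and 100 barcodes). Those with exactly 1, just outside, had 111.3, 138.4 and 428.7 CPM (230, 66 and 75 barcodes). All kept barcodes outside the rule, 427, 129 and 186 with median depths of 2322 to 2994.5 UMIs, had Tkt at 114.7, 140.8 and 359.3 CPM, and Pgls at 148.6, 251.8 and 130.2 CPM. Horizontal cell markers, a list that includes the rule genes, summed to 2665 to 4415 CPM in them, and the part of free RNA in these values was not tested.

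The close relatives of the members were scarce. H6pd, the G6pdx relative of the endoplasmic reticulum, had 47, 26 and 51 UMIs (0.5710, 0.4159 and 0.4944 CPM). The transketolase-like gene Tktl1 had 24, 1 and 3 UMIs, and Tktl2 and G6pd2 had 0 in every library. Of 14 related enzymes that make or use pathway sugars, such as the ribose-phosphate pyrophosphokinases, 6 were measured at 20 CPM or more and all 6 lay within 1.5-fold between P6 and P11, with a median log2 ratio of 0.25.

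Genes on either side of the pathway were read from 6 further lists, drawn up with earlier results of these data known. Each count stands beside 7.31% of all genes higher and 12.3% lower for P11 over P6. A list of 14 genes for NADPH supply outside the pathway also held genes that do not themselves make NADPH, among them the NAD kinases Nadk and Nadk2. Of the 14, 9 were measured, and Nnt, not found under a symbol of its own, was left out. At P11, 1 of the measured genes was higher, 2 were lower and 6 lay between, with a median log2 ratio of -0.21. The count and median are therefore not a readout of NADPH makers alone. The higher one was Me1, cytosolic malic enzyme, at 42.49, 50.77 and 84.92 CPM (1.999-fold). The lower ones were Mthfd2, a mitochondrial folate enzyme, at 46.23, 23.61 and 21.54 CPM (2.146-fold lower), and Idh2, mitochondrial isocitrate dehydrogenase (1.504-fold lower). Idh2 was under 1.5-fold in 8 of 13 alternatives, and the list's median was -0.01 under both other scalings.

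Of 33 genes listed, some served glutathione and thioredoxin metabolism, which spends NADPH, and others, such as Sod1, Sod2 and Cat, wider antioxidant defence. In all, 23 were measured, of which 3 were higher, 1 was lower and 19 lay between (median 0.26). The higher ones were Sod2, mitochondrial superoxide dismutase (1.790-fold), Srxn1, sulfiredoxin (1.659-fold), and Prdx3, mitochondrial peroxiredoxin (1.645-fold), the last named after its value was seen. Gpx1, a glutathione peroxidase, was 1.754-fold lower. With the other scalings 9 of this list were higher, where 14.0% of all genes were. Of 14 NADPH-using genes of lipid and sorbitol synthesis, 11 were measured; 0 were higher, 2 were lower, Hsd17b12 (1.780-fold) and Cyp51 (1.672-fold), and 9 lay between. Under both other scalings Cyp51 was no longer past 1.5-fold, leaving 1 lower, and the median of the list moved from -0.08 to 0.12. Relative to genes of like span, Hsd17b12 was under 1.5-fold.

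Of 18 genes of purine and pyrimidine synthesis, which consumes ribose 5-phosphate, 14 were measured; 2 were higher, 0 were lower and 12 lay between (median 0.15). Hprt, the purine salvage enzyme, was at 142.7, 299.3 and 325.6 CPM (2.282-fold), and Paics, an enzyme of purine synthesis, was 2.090-fold higher. Thiamine diphosphate is the cofactor of transketolase; of 15 genes of thiamine transport and thiamine enzyme complexes, 6 were measured and all 6 lay between (median 0.16).

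Glycolysis, which shares sugar phosphates with the pathway, had the highest median of the 7 lists for P11 over P6, 0.67. Of its 28 genes 17 were measured, 10 were below 20 CPM, and Aldoa, not found under a symbol of its own, was left out. Among the 17, 9 were higher, 1 was lower and 7 lay between. At a 2-fold limit 4 were higher, and the share of all genes at that limit is not given here, so that count has no comparison. Aldoc, an aldolase, was at 41.12, 94.87 and 133.8 CPM (3.254-fold), and Pfkfb3, which makes an activator of phosphofructokinase, at 64.28, 105.2 and 158.0 CPM (2.458-fold). Pfkp, a phosphofructokinase, was 2.503-fold lower. None of the measured genes of the 7 lists reached the P11 to P6 ratio of Tkt. Tkt was chosen for its rise in these same libraries, so its place above the lists is a description only.

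**Figure D5:**
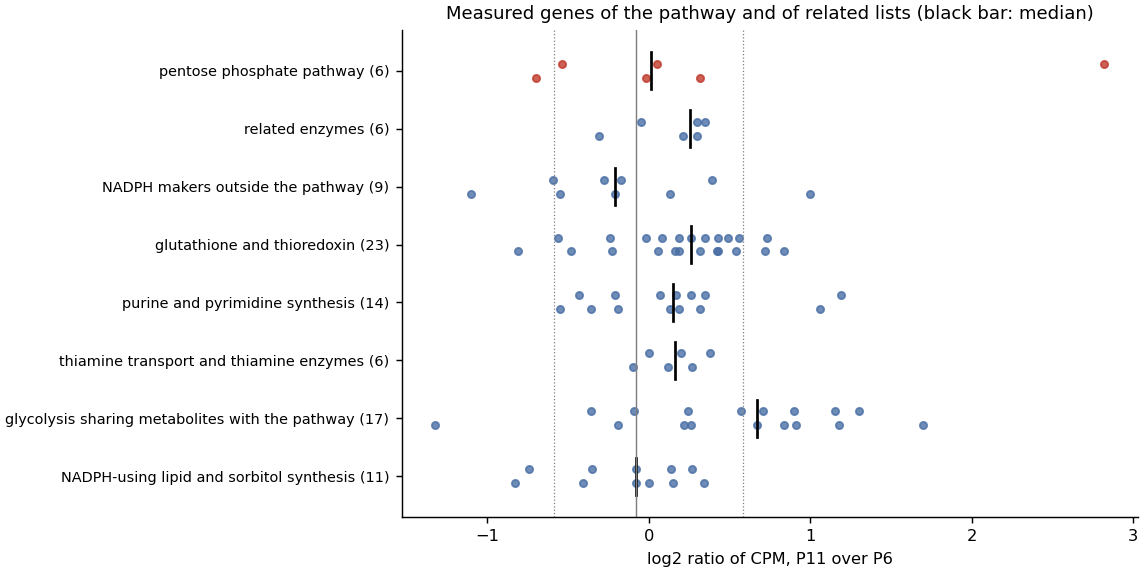
Log2 ratio of P11 over P6 (axis in log2 units) for each measured gene of the 7 pathway members and the 7 gene lists, 1 point per gene with at least 20 CPM at its higher age; black bars are list medians, the grey line is the median of all genes and dotted lines mark 1.5-fold. Tkt, chosen for its rise, lies at 2.82 above every other point, and the glycolysis list has the highest median, 0.67.

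The genes whose age pattern came closest to that of Tkt were not members of the pathway. Likeness was the distance between genes over their 2 log2 steps (P8 over P6, P11 over P8), across 3 libraries and among 2210 genes with at least 100 CPM at their highest age. Thrsp, a regulator of lipid synthesis, was closest at a distance of 0.196, with 43.03, 105.5 and 364.1 CPM. Next came Slc4a3, an anion exchanger gene and horizontal cell marker, at 0.530, and Appl2, an endosomal adaptor gene, at 0.584. The others were Ly6e (0.669), Lynx1 (0.714), Faim2 (0.718), Calb1 (0.830) and Erich5 (0.841). Of the other pathway members only Taldo1 and Pgls reached 100 CPM and could be ranked. Distances were still taken for all of them and ran from 1.84 (Rpe) to 2.65 (Pgls). With 3 libraries such a distance ranks patterns and says no more about them.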

How the data were processed

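UMI counts per gene and barcode were deposited by the authors, who per the submitters' processing notes ran Cell Ranger 7.1.0 on mm10. The treatment of intron reads, like the gene annotation, was not given in the sources used here. Totals were 87939202 (P6), 65546590 (P8) and 105561999 (P11) UMIs over 9896, 4635 and 5517 barcodes. Barcodes with at least 1000 genes and at most 10% mitochondrial UMIs were kept, and horizontal cells taken as described in the report. Their raw counts were summed per library (82305608, 62520239 and 103160766 UMIs) and divided by that sum to give CPM. Intervals were exact Poisson, conditional binomial or Clopper-Pearson (scipy 1.17.1). Doublets were not removed: Scrublet (scanpy 1.11.5) at its own threshold marked 0%, 0.244% and 0% of cells, so its highest scores were left out only as an alternative.

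The members and lists were chosen with earlier results of these data known. Named were all members, listed paralogs, up to 2 list genes each way farthest beyond 1.5-fold, and the 8 genes nearest to Tkt in age pattern. Positions came from GENCODE vM21 (mm10), by gene ID for 32158 features; promoters from RefSeq, which held all 7 members. The procedures were tested on simulated data. Alternatives were TMM (edgeR 4.0.16) and median-of-ratios scaling, other cell and gene limits, thinning, means over cells and genes of like span.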

Additional observations from a re-analysis of the deposited data

How the results depend on the processing

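The direction of log2 P11 over P6 held under all 13 alternatives for Tkt (2.77 to 3.02), the oxidative branch (-0.58 to -0.36) and the non-oxidative branch without Tkt (0.03 to 0.27). Cells of 1000 to 5000 and of 5000 to 10000 UMIs were not among these alternatives. In them Taldo1, the main gene of the last sum, was lower at P11 (104.6 and 134.3 CPM) than at P6 (187.2 and 266.2 CPM). In the deeper groups Taldo1 was higher at P11. TMM and median-of-ratios scaling each gave 3.02 for Tkt, -0.36 for the oxidative branch, 0.27 for the non-oxidative branch without Tkt and 0 members lower. Cells of 10000 to 20000 UMIs, chosen after seeing the data, gave 2.92, -0.45, 0.20 and 0 members lower. Thinning gave 2.77 for Tkt and 0.03 for the non-oxidative branch without Tkt, which was 0.10 at a 5% mitochondrial limit and 0.04 as a mean over cells. Genes of like span gave 2.87 for Tkt. A 2-fold limit gave 0 members lower, without a share of all genes at that limit to set beside it. Tkt was the 1 member higher in every alternative. Over all genes, P11 over P6 called 523 higher and 882 lower, against 985 and 485 with TMM and 979 and 483 with median-of-ratios scaling; P8 over P6 called 560 and 1531, against 1435 and 792, and 1599 and 709. G6pdx ranged from -0.05 to 0.18. No paired analysis was possible because each age had 1 library; for the same reason no library could be left out. The low counts of Rpia limit what its ratios can show.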
